A study of Mus musculus with 4 samples.

Results

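Skeletal muscle transcripts were followed through bulk RNA libraries of rib cartilage cells from C57BL/6 mouse embryos at E17.5, shortly before birth. The genes described here are 40 of the 55228 genes in the count table, chosen by name: 6 myogenic regulators, 32 contractile and calcium-handling genes, and 2 genes of cell fusion and energy supply. 2 libraries came from wild-type (WT) and 2 from Trim28 knockout (Trim28 KO) embryos. Apart from Trim28, the labels give both genotypes the same strain, stage and tissue. They do not say how the knockout was made or in which cells Trim28 was removed. Nothing states that replicate libraries stem from different embryos, and p-values here cover only the spread between the libraries, which may be technical.

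Skeletal muscle forms from progenitors that carry the transcription factors PAX3 and PAX7. MYF5, MYOD and MYF6 (MRF4) commit these cells to the muscle fate, and myogenin (MYOG) drives their differentiation and fusion into fibres. A fibre then fills with sarcomeres, in which thick filaments of myosin slide along thin filaments of actin, tropomyosin and troponin. The acetylcholine receptor, the dihydropyridine receptor and the ryanodine receptor turn a nerve signal into calcium release from the sarcoplasmic reticulum. Many promoters of these genes hold E-boxes, the sites bound by the myogenic regulators, MEF2 sites, or CArG boxes, the sites of serum response factor. TRIM28 is a corepressor brought to DNA by KRAB zinc finger proteins, and in cultured myoblasts it has been reported as a partner of MYOD. The ribs are bordered by intercostal muscle.

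Promoters of 5 genes are shown for the motifs of these regulators: Myog and Chrna1, a target of the regulators, Casq1, a calcium store gene, and Acta1 and Myh8, which have high levels below. Each is the 250 bases before a gene's start in RefSeq on GRCm38.p6, read 5′ to 3′ on the gene's strand. They lie at chr1:134289754-134290003 (Myog, plus strand), chr2:73580339-73580588 (Chrna1, minus strand), chr1:172219896-172220145 (Casq1, minus strand), chr8:123894776-123895025 (Acta1, minus strand) and chr11:67276874-67277123 (Myh8, plus strand). Capitals mark E-boxes (CANNTG), the MEF2 site in Myh8 and the CArG box in Acta1.
Myog: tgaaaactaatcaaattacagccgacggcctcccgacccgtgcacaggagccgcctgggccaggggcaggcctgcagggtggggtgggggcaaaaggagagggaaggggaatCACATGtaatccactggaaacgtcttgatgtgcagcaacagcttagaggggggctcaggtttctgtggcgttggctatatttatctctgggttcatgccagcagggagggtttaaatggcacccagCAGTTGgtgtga
Chrna1: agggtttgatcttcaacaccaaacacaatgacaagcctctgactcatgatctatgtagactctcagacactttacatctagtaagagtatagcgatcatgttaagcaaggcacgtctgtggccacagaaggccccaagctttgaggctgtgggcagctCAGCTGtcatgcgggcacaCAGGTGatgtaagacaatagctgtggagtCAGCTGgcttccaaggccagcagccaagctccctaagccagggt
Casq1: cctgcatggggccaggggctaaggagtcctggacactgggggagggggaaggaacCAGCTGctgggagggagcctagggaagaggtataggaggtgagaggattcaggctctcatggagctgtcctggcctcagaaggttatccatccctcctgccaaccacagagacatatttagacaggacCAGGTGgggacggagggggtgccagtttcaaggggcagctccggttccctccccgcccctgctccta
Acta1: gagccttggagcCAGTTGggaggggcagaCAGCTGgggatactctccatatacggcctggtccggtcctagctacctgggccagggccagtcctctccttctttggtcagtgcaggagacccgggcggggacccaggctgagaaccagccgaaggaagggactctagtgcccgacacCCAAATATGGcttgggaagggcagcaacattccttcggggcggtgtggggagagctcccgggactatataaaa
Myh8: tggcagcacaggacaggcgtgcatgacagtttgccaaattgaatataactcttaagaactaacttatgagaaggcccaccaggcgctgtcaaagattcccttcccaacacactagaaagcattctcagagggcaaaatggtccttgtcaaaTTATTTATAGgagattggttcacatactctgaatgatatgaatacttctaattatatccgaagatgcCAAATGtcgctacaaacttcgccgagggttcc

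Of the 40 genes, 32 had a promoter in the RefSeq table. An E-box, read on both strands, stood in 25 of the 32 (78.1%), and in 66.2% of all 32851 promoters of that length. Its CAGCTG form, which is one of the sequences that CANNTG covers, stood in 14 (43.75%), and in 13.0% of all promoters. A MEF2 site stood in 4 (12.5%; 2.92% of all) and a CArG box in 3 (9.38%; 1.47% of all). A gene counted if any of its listed starts held the motif, whereas the background counted each promoter singly. This can raise the shares among the 32 genes, since Myh7, Myl2, Tnni1 and Tnnt2 have several listed starts. These are matches of letters and were not tested as sites of binding.

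The library labels were checked on the targeted gene. Trim28 stood at 225, 186, 51.1 and 54.5 CPM (counts brought to a common library total after scaling with TMM, edgeR's trimmed-mean factors) in WT 1, WT 2, Trim28 KO 1 and Trim28 KO 2, so both Trim28 KO libraries were far below both WT libraries. Values of 4 libraries below follow this order. Total counts ran from 18616896 to 20082123 per library, and 3 counts, taken as the limit of detection, corresponded to 0.151 to 0.159 CPM. The cartilage label held: 8 chondrocyte markers summed to between 79172 and 107676 CPM, against 0.0405% to 0.153% of all counts for the contractile and calcium-handling genes without Tnnt3.

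Skeletal muscle transcripts were present in every library, but their amount differed as much between libraries of 1 genotype as between genotypes. Of the 40 genes, 35 passed the filter on low counts. Myog rose and Tnnt3 fell in Trim28 KO at an adjusted p under 0.05 by edgeR's quasi-likelihood test with Benjamini-Hochberg adjustment over 16639 genes, and the other 33 were not called. These 2 genes are 5.71% of the 35, against 17.4% of all genes tested (8.64% higher and 8.77% lower). The log2 fold change, Trim28 KO over WT, was above 0 in 30 of the 35, with a median of 0.62 against -0.02 over all genes tested. Its median standard error (SE) was 0.593, against 0.216 over all genes. In bulk RNA, more muscle cells and more muscle RNA per cell cannot be told apart.

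**Figure D1:**
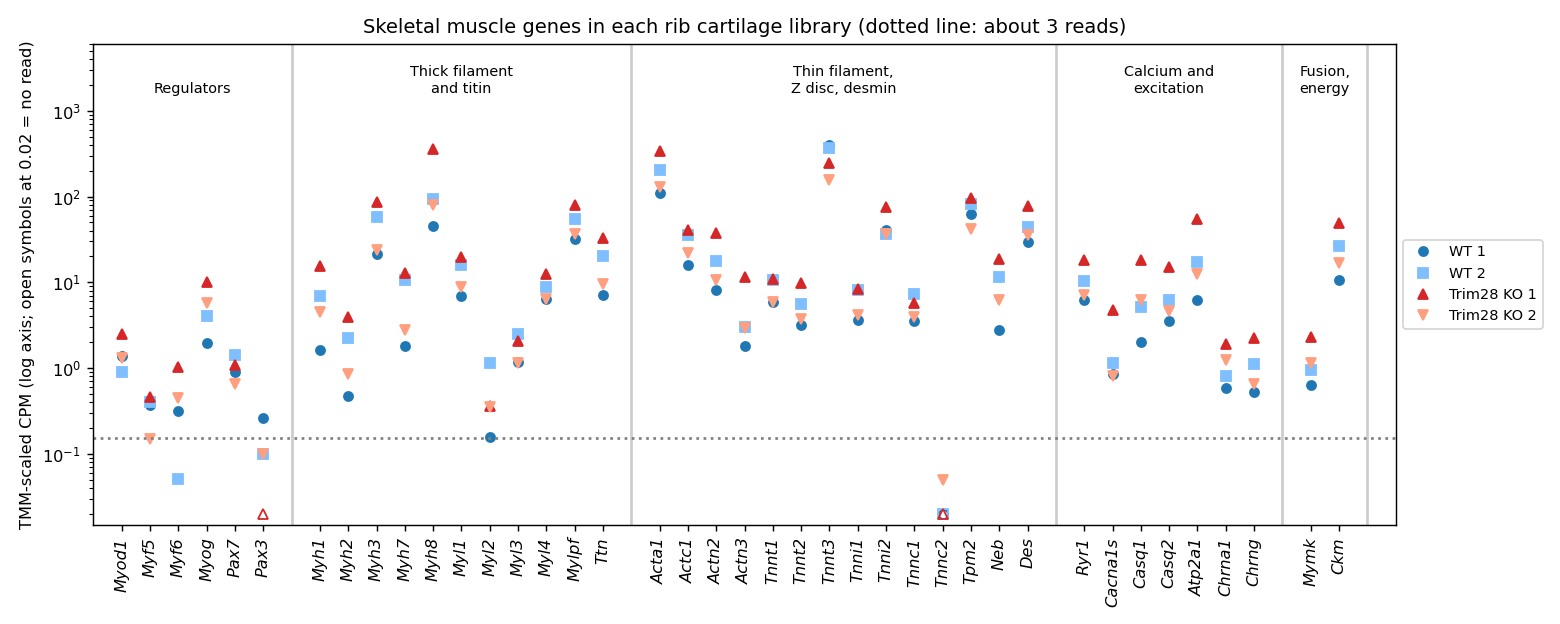
TMM-scaled CPM (log axis) of the 40 genes in each library, grouped by role. The dotted line marks about 3 reads, and open symbols mark libraries with no read. Trim28 KO 1 (dark red triangles) was the highest library for 31 of the 35 tested genes, and Tnnt3 is the gene at high level with both WT libraries on top.

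The libraries kept nearly the same order from gene to gene. Trim28 KO 1 exceeded Trim28 KO 2 in 35 of 35 tested genes, against 46.9% of all genes, and WT 2 exceeded WT 1 in 32 of 35, against 8321 of all 16639. Both orders held in 32 genes (91.4%), against 23.1% of all genes, and the exceptions were Myod1, Tnnt3 and Tnni2, which were higher in WT 1. Trim28 KO 1 was the highest library for 31 genes, WT 1 was the lowest for 28, and WT 2 stood above Trim28 KO 2 for 30. Over the tested genes the median log2 CPM was 1.85, 3.37, 3.95 and 2.65, so a WT library held the second place and the other WT library the last.

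The spread within a genotype was large. The median ratio of WT 2 to WT 1 was 2.02-fold and that of Trim28 KO 1 to Trim28 KO 2 was 2.58-fold, which are 1.02 and 1.37 on the log2 scale. Over all genes tested the median size of these log2 ratios was 0.245 and 0.234. The widest were Myh7, the slow myosin heavy chain, at 5.86-fold between the WT libraries, and Cacna1s, the dihydropyridine receptor subunit that senses voltage, at 5.81-fold between the Trim28 KO libraries. In 30 of the 35 genes (85.7%), and in 54.6% of all genes, the larger of both within-genotype log2 ratios exceeded the fitted genotype difference. The exceptions were Myog, Tnnt3, Casq1, Chrna1 and Mymk, and these were also the only tested members without overlap between genotypes (5 of 35, or 14.3%, against 58.0% of all genes).

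**Figure D2:**
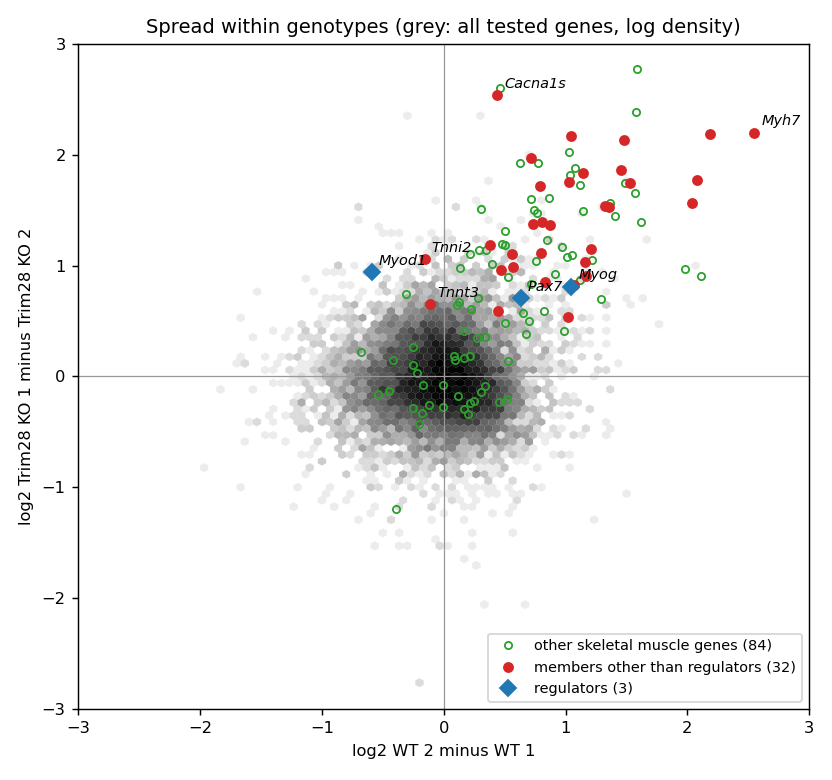
Log2 ratio between both WT libraries (x axis) and between both Trim28 KO libraries (y axis) for each gene, with both axes running from -3 to 3. Grey is the log density of all tested genes within these axes, green circles are 84 other skeletal muscle genes, and the 35 tested members (red, with regulators as blue diamonds) sit above 0 on the y axis, 32 of them in the upper right.

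Among the myogenic regulators, Myog, on chr1:134289989-134292548 of GRCm38 (plus strand), was the one that rose. It had 37, 81, 197 and 115 reads, or 1.96, 4.09, 10.14 and 5.77 CPM. Both Trim28 KO libraries were above both WT libraries, although the nearest of them, WT 2 and Trim28 KO 2, were closer to each other than either was to its own replicate. The fitted difference was 2.62-fold, or 1.39 ± 0.36 on the log2 scale (± SE; 2 libraries per genotype; edgeR adjusted p = 0.0176). Without Trim28 KO 1 it was 0.93 (adjusted p = 0.210), and with replicate number as a block 1.39 (adjusted p = 0.065), so the call was lost in both fits.

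The other regulators had low counts, at most 49 reads in a library, and Myod1 and Pax7, the ones that passed the filter, were not called. Myod1, the regulator that commits cells to muscle, had 26, 18, 49 and 26 reads (1.38, 0.91, 2.52 and 1.30 CPM), and the genotypes overlapped because WT 1 lay above Trim28 KO 2. Its log2 fold change was 0.74 ± 0.44 (edgeR adjusted p = 0.272). Pax7, the progenitor and satellite cell factor, had 17, 28, 21 and 13 reads and a log2 fold change of -0.42 ± 0.47 (edgeR adjusted p = 0.599). The libraries of both genotypes interleaved. The remaining regulators did not pass the filter on low counts. Myf5 had 7, 8, 9 and 3 reads, Myf6 had 6, 1, 20 and 9, and Pax3, the early progenitor factor, had 5, 2, 0 and 2. With no filter on low counts Myf6 was called higher (log2 fold change 2.01, edgeR adjusted p = 0.0461), as it was without WT 1 (3.74, adjusted p = 0.0225), while Myf5 and Pax3 were not called with no filter.

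The thick filament genes gave no call in 10 tested of 11, with log2 fold changes from -0.19 to 1.66 and a median of 0.45. Myh8, the perinatal myosin heavy chain, stood at 45.6, 93.9, 360 and 80.3 CPM. Trim28 KO 1 was far above the other libraries, and Trim28 KO 2 lay between the WT libraries. Its log2 fold change was 1.66 ± 1.13 (edgeR adjusted p = 0.489). Myh3, the embryonic myosin heavy chain, stood at 21.2, 58.3, 87.3 and 24.0 CPM, with one library of each genotype high and one low. The adult fast chains Myh1 (1.65, 7.02, 15.4 and 4.52 CPM) and Myh2 (0.48, 2.27, 3.96 and 0.85 CPM) had the same order, and so did Myh7 (1.81, 10.7, 12.8 and 2.76 CPM). Myosin heavy chain genes are near-identical in places and reads that map to several places were not counted, so their values are uncertain.

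The fast and embryonic light chains repeated this order. Mylpf, the fast regulatory light chain, stood at 31.6, 55.2, 79.6 and 36.8 CPM, Myl1 at 6.85, 15.9, 19.5 and 8.78, and Myl4, the embryonic light chain, at 6.32, 8.74, 12.4 and 6.32. Log2 fold changes were 0.42 ± 0.54, 0.31 ± 0.69 and 0.31 ± 0.30. Ttn, the giant protein that spans the sarcomere, stood at 7.06, 20.5, 32.6 and 9.68 CPM and differed by 0.62 ± 1.07. In each of these genes the WT 2 and Trim28 KO 1 libraries were the high ones. Myl3, a slow and ventricular light chain, was the thick filament gene with a negative value, -0.19 ± 0.44, at 1.17, 2.48, 2.06 and 1.15 CPM. Myl2, the slow regulatory light chain, had 3, 23, 7 and 7 reads and was not tested.

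The makeup of the myosin heavy chain transcripts could be compared within a library, where the amount of muscle RNA cancels. Of the length-scaled CPM of Myh1, Myh2, Myh3, Myh7 and Myh8, Myh8 took 49.0%, 39.4%, 61.9% and 57.2%, and Myh3 took 44.3%, 47.5%, 29.1% and 33.2%. Both Trim28 KO libraries thus had a larger perinatal and a smaller embryonic share than both WT libraries. Myh8 and Myh3 make up most of the sum, so a larger share of one lowers that of the other. Myosin heavy chain genes outside these 5 were not included. Perinatal myosin replaces embryonic myosin as fibres mature, and whether fibre maturity differed was not tested. Myh1 took 3.28%, 5.45%, 4.91% and 5.96%, Myh7 took 2.65%, 6.13%, 2.99% and 2.68%, and Myh2 at most 1.57%, and their shares overlapped between genotypes. With 2 libraries per genotype an exact permutation test cannot give a two-sided p below 0.333, so these shares carry no test.

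**Figure D3:**
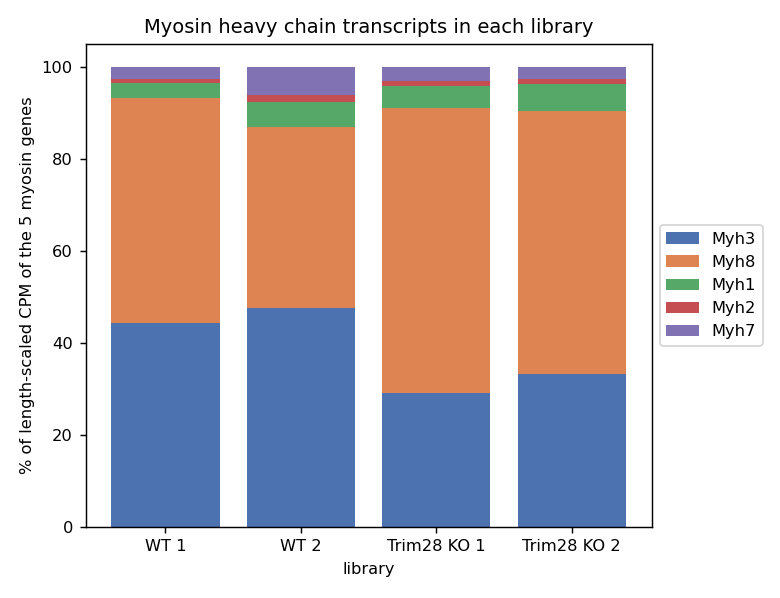
Share of each of 5 myosin heavy chain genes in their summed length-scaled CPM (%), 1 bar per library. The Myh8 part is 57.2% and 61.9% in the Trim28 KO libraries, against 39.4% and 49.0% in WT.

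Among the thin filament, Z disc and desmin genes, 13 of 14 were tested and Tnnt3 was the single call. Tnnt3, the fast skeletal troponin T that anchors the troponin complex to tropomyosin, lies on chr7:142498836-142516009 of GRCm38 (plus strand). It stood at 395, 365, 248 and 157 CPM. Both WT libraries were above both Trim28 KO libraries. Tnnt3 fell 1.88-fold, with a log2 value of -0.91 ± 0.22 (± SE; 2 libraries per genotype; edgeR adjusted p = 0.00611). Without Trim28 KO 2 it was -0.61 (adjusted p = 0.142), which ends the call.

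Tnnt3 also stood apart in its level. Per kilobase of exon it was the most abundant of the 40 genes in WT, at a mean of 240 CPM, ahead of Acta1 at 102, Mylpf at 40.9 and Tnni2 at 25.8. In Trim28 KO the mean was 128 CPM per kilobase for Tnnt3 and 152 for Acta1. The WT libraries differed little in Tnnt3 (0.924-fold, WT 2 over WT 1), whereas Acta1 differed 1.83-fold between them. Tnnt3 therefore did not follow the order of most contractile genes in WT, and in Trim28 KO it did, with Trim28 KO 1 at 1.57 times Trim28 KO 2.

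Tnni2, the fast skeletal troponin I, ends 54426 bases before Tnnt3 on chromosome 7. It is also known as an inhibitor of blood vessel growth found in cartilage. It stood at 40.8, 36.6, 75.5 and 36.3 CPM. WT 1, WT 2 and Trim28 KO 2 were alike and Trim28 KO 1 was high, and the log2 fold change was 0.53 ± 0.32 (edgeR adjusted p = 0.326). Tnnt3 and Tnni2 had the same order in WT, but the high library in Trim28 KO exceeded WT for Tnni2 and stayed below it for Tnnt3.

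**Figure D4:**
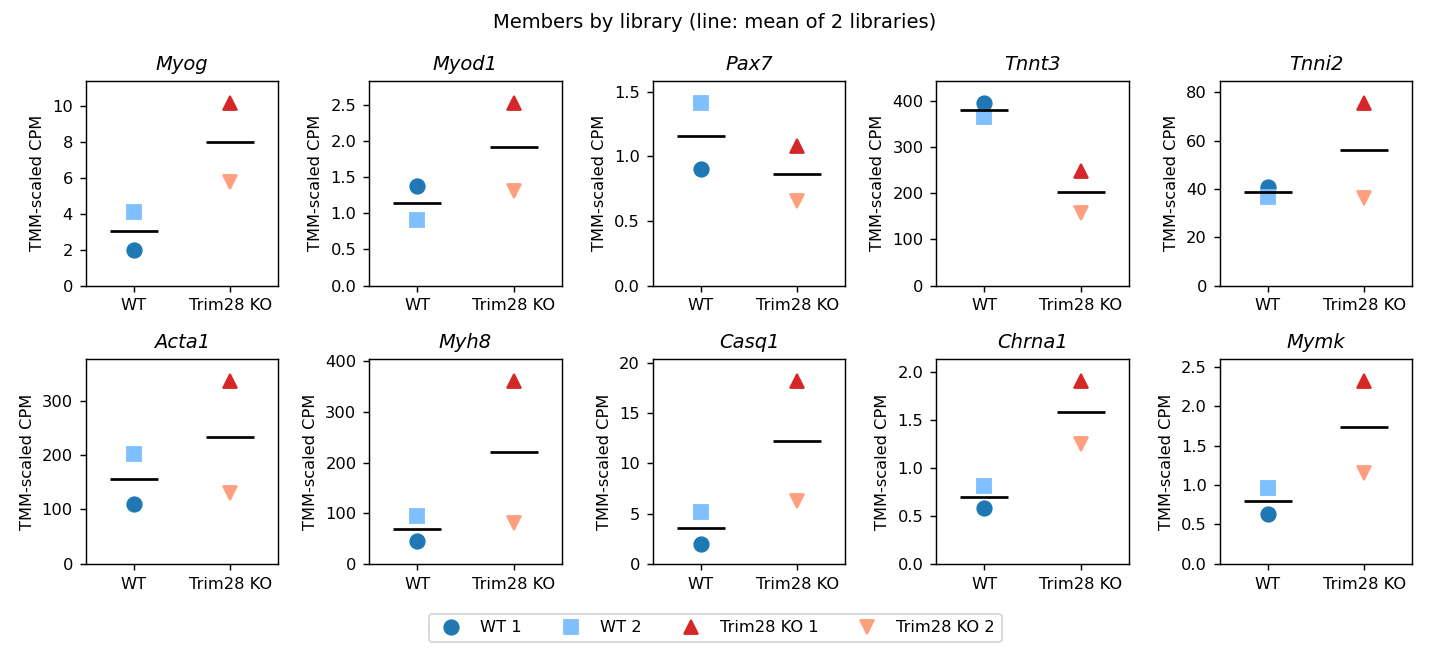
TMM-scaled CPM of 10 genes in each library, with a line at the mean of 2 libraries per genotype and an axis from 0 in each panel. The genotypes do not overlap for Myog, Tnnt3, Casq1, Chrna1 and Mymk, and they overlap for Myod1, Pax7, Tnni2, Acta1 and Myh8.

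The remaining thin filament genes were not called. Acta1, skeletal actin, stood at 110, 202, 336 and 130 CPM, with WT 2 and Trim28 KO 1 high, and differed by 0.58 ± 0.68 (edgeR adjusted p = 0.665). Actc1, the cardiac actin that embryonic skeletal muscle also uses, stood at 15.9, 35.7, 40.6 and 21.7 CPM and differed by 0.27 ± 0.60. Tpm2, the beta tropomyosin, was nearly level between genotypes at 62.7, 81.6, 96.0 and 42.3 CPM (log2 fold change -0.06 ± 0.42, and 0.0075 with library totals alone). Neb, the ruler of the thin filament, stood at 2.76, 11.4, 18.6 and 6.27 CPM, and Des, the muscle intermediate filament, at 29.8, 43.9, 77.2 and 35.9. Both again had their high library in WT 2 and Trim28 KO 1. The Z disc actinins had the common order but a different spacing: Actn2 stood at 8.13, 17.9, 38.0 and 10.6 CPM, and Actn3, the fast fibre form, at 1.81, 2.98, 11.5 and 2.91, with 3 libraries close together and Trim28 KO 1 above them.

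The slow troponins differed little between genotypes. Tnnt1 stood at 5.90, 10.5, 10.8 and 5.97 CPM, Tnni1 at 3.61, 8.08, 8.44 and 4.12, and Tnnc1, shared by slow and cardiac muscle, at 3.56, 7.22, 5.77 and 3.96. Their log2 fold changes were 0.03 ± 0.33, 0.10 ± 0.48 and -0.15 ± 0.32, and each was high in 1 library of each genotype. Tnnt2, the cardiac troponin T of embryonic muscle, stood at 3.19, 5.61, 9.78 and 3.71 CPM and differed by 0.61 ± 0.52. Tnnc2, the fast troponin C, had 0, 0, 0 and 1 reads. In the annotation 74.0% of its 800 exon bases are shared with Ube2c on the opposite strand, and reads over several genes were not counted, so its level is not known from this table. By fibre type, the median log2 fold change was 0.06 for 6 tested slow genes, 0.79 for 9 fast genes and 0.55 for 6 developmental genes. Their median SE was 0.46, 0.85 and 0.58. The within-genotype ratio exceeded the genotype difference in 6, 7 and 6 of them, and 0 were called higher. Summed CPM of the 7, 10 and 6 listed genes was 1.19, 0.80 and 2.19 times as high in Trim28 KO as in WT. Single genes dominated these sums. Tnnt3 held 395 of the 487 CPM of the fast sum in WT 1, although 8 of the 9 tested fast genes had log2 fold changes above 0. Myh8 held 360 of the 513 CPM of the developmental sum in Trim28 KO 1.

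The calcium-handling and excitation genes had the highest median log2 fold change of the groups with more than 3 tested genes, 1.17, and all 7 values lay above 0 (0.62 to 1.75), but none was called. Without Trim28 KO 1 the median was -0.068, with 3 values above 0 and 4 below. Casq1, the fast fibre calsequestrin that binds stored calcium, stood at 2.02, 5.20, 18.2 and 6.27 CPM. Both Trim28 KO libraries were above both WT libraries, with WT 2 close to Trim28 KO 2, and the log2 fold change was 1.75 ± 0.88 (edgeR adjusted p = 0.342). Chrna1, the alpha subunit of the muscle acetylcholine receptor, stood at 0.58, 0.81, 1.91 and 1.25 CPM, also without overlap (1.17 ± 0.46, edgeR adjusted p = 0.0856). Chrng, the fetal gamma subunit, stood at 0.53, 1.11, 2.27 and 0.65 CPM, and WT 2 was above Trim28 KO 2.

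Within the calcium cycle, Atp2a1 (SERCA1), the fast fibre pump that returns calcium to the store, stood at 6.21, 17.4, 54.8 and 12.4 CPM (log2 fold change 1.51 ± 1.22). Ryr1, the release channel, stood at 6.21, 10.4, 18.4 and 7.08 CPM (0.62 ± 0.59), and its partner Cacna1s at 0.85, 1.16, 4.79 and 0.80 (1.46 ± 0.88). Casq2, the slow and cardiac calsequestrin, stood at 3.56, 6.16, 15.2 and 4.62 CPM (1.03 ± 0.78). In these 4 genes Trim28 KO 1 was the high library and Trim28 KO 2 lay below WT 2. Atp2a1 shares 21.9% of its exon bases with Rabep2 on the opposite strand, and Cacna1s shares 20.0% with a predicted gene, so part of their reads may be uncounted.

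Mymk (myomaker), the membrane protein needed for myoblast fusion and a target of the myogenic regulators, stood at 0.64, 0.96, 2.32 and 1.15 CPM. Both Trim28 KO libraries were above both WT libraries, and the log2 fold change was 1.11 ± 0.47 (edgeR adjusted p = 0.108). Ckm, the muscle creatine kinase, stood at 10.6, 26.7, 48.8 and 16.8 CPM (0.81 ± 0.95) and followed the common order of the libraries. Myog, Tnnt3, Chrna1 and Mymk were the 4 members with an unadjusted p under 0.05.

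**Figure D5:**
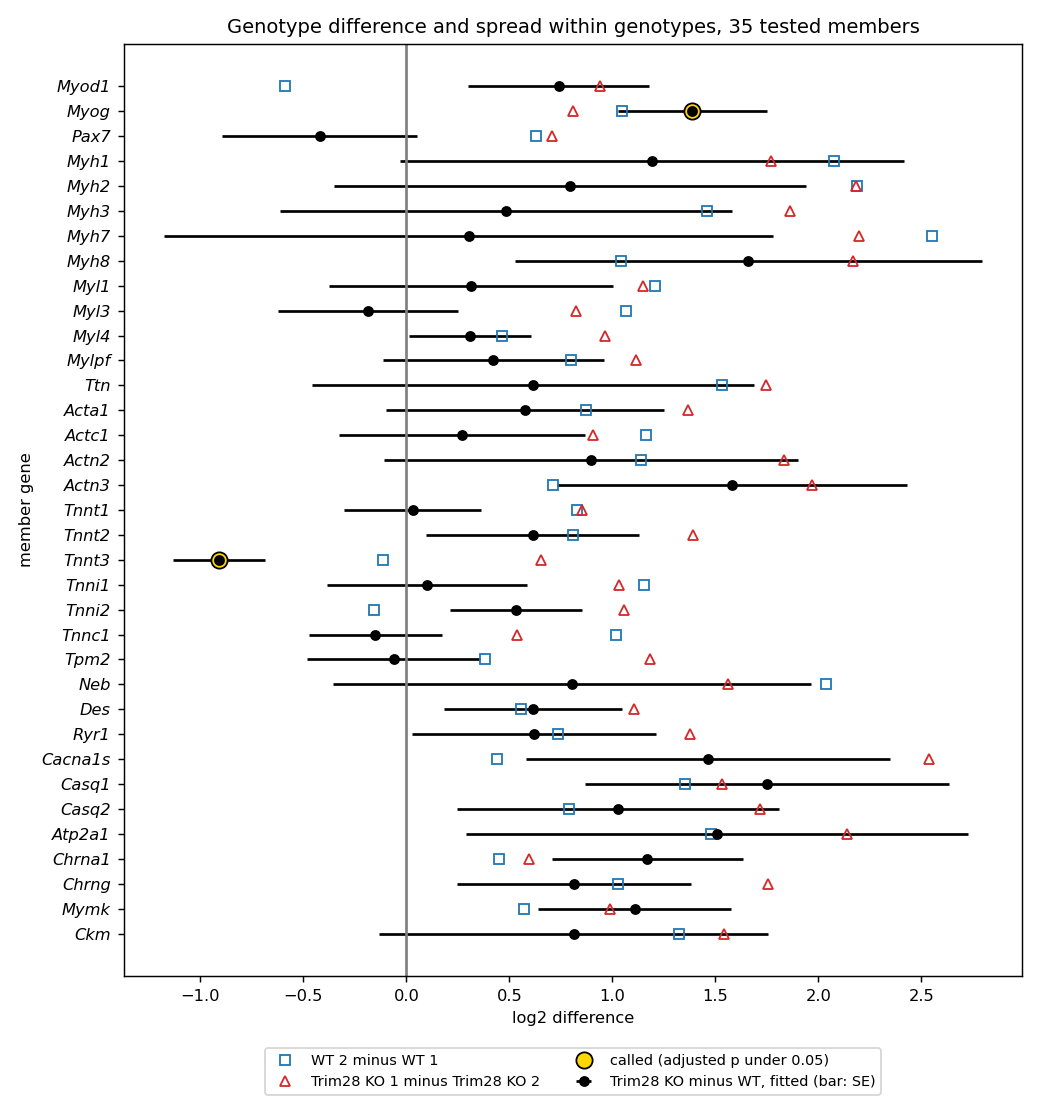
For each of the 35 tested genes, the fitted log2 difference between genotypes with its SE (black), the log2 ratio of WT 2 to WT 1 (blue squares) and that of Trim28 KO 1 to Trim28 KO 2 (red triangles). Myog and Tnnt3 (gold) are called, and in 30 of the 35 genes a coloured symbol lies farther from 0 than the black one.

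The rule of the comparison was regulators against contractile and calcium-handling genes. It gave 1 higher (Myog) and 0 lower of 3 tested regulators, and 0 higher and 1 lower of 30 tested contractile and calcium-handling genes. Of all genes tested, 8.64% were higher and 8.77% lower, and the regulator count rests on a single gene. DESeq2 also called 0 of the 30 higher and limma-voom called 1, Casq1, and 1 of the 30 (Chrna1) had a positive difference at an unadjusted p under 0.05 in edgeR. The median log2 fold change of the tested members was 0.29 without WT 1 and 1.33 without WT 2. It was 1.16 without Trim28 KO 2 and -0.24 without Trim28 KO 1, where 21 members changed sign.

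Each gene was also set against the contractile reads of its own library. The contractile and calcium-handling genes without Tnnt3 held 8143, 15475, 28546 and 10215 reads. Tnnt3 was left out of the sum after its values had been seen. Per 1000 of these reads, Myog had 4.54, 5.23, 6.90 and 11.3 reads, with both Trim28 KO libraries above both WT libraries. The difference between the mean log2 values was 0.85. Pax7 had 2.09, 1.81, 0.736 and 1.27, with both Trim28 KO libraries below (log2 difference -1.01), and Myod1 had 3.19, 1.16, 1.72 and 2.55 and overlapped. The Pax7 values rest on 13 to 28 reads.

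On this relative scale 7 of the 35 tested members were higher and 8 lower without overlap. Of all genes tested, 2.37% and 15.7% were, but these shares are no yardstick for the members. A gene that does not vary with muscle takes on the spread of the contractile reads, whereas most members are part of the sum. With Tnnt3 in the sum 17 members were higher and 3 lower, and with a geometric mean instead of the sum 6 and 8. Myog, Myh8, Actn3, Casq1 and Atp2a1 were higher, and Pax7, Tnnt3 and Tpm2 lower, under each of the 3 denominators. Casq1 had 4.67, 6.66, 12.4 and 12.2 reads per 1000, so both Trim28 KO libraries were alike and above WT although their CPM differed. Of the 6 tested slow genes, Myl3, Tnnt1, Tnni1 and Tnnc1 were lower with the sum without Tnnt3 and with the geometric mean and overlapped with Tnnt3 in the sum, Myh7 overlapped under each denominator, and Casq2 was higher with both sums and overlapped with the geometric mean. These ratios carry no test.

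Among 88 further skeletal muscle genes, 84 were tested, 16 rose, 4 fell and 64 were not called (23.8% called, with a median log2 fold change of 0.50). Over all genes tested, 17.4% were called, 8.64% higher and 8.77% lower. By role, 6 of 28 sarcomere genes, 5 of 19 genes of excitation and cell junctions, 3 of 13 energy genes and 2 of 24 regulatory genes rose, and the 4 that fell were regulatory. The genotypes did not overlap in 43 of the 84 genes (51.2%), against 58.0% of all genes tested. The 16 that rose were among the 43, which their call makes likely. Both library orders of the members held in 59 of the 84, against 23.1% of all genes. They held in 27 of the 28 sarcomere genes but in 5 of the 24 regulatory genes. Whether the reads of these genes came from muscle was not tested. Fabp3, a fatty acid carrier of oxidative muscle, stood at 2.50, 2.73, 29.7 and 18.7 CPM, with Trim28 KO far above WT (log2 fold change 3.21 ± 0.26, edgeR adjusted p = 8.13e-09). Cryab, a small heat shock protein that protects desmin, stood at 12.9, 15.6, 57.3 and 45.1 CPM (1.85 ± 0.20, edgeR adjusted p = 4.67e-07). In both genes the genotypes lay farther apart than the libraries of either genotype. Their WT libraries differed little, whereas the median ratio of WT 2 to WT 1 over the tested members was 2.02-fold.

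Of the other called genes named by rule, all but Meox1 rose. Hspb7, a small heat shock protein of muscle, rose by 1.37, Cacnb1, a subunit of the muscle calcium channel, by 1.19, Sgca, alpha-sarcoglycan, by 1.49, and Xirp2, an actin-binding protein, by 1.53 on the log2 scale. Mstn (myostatin), a secreted brake on muscle growth, rose by 2.11 at 0.90, 0.56, 3.40 and 2.91 CPM. Hrc, a calcium-binding protein of the sarcoplasmic reticulum, rose by 1.25 and Cox6a2, a muscle cytochrome oxidase subunit, by 1.33, and Meox1, a somite homeobox gene, fell by 0.89. Without Trim28 KO 1 these last 3 were no longer called, and 8 of the 84 genes rose and 0 fell. Id3, Tpm1, Id2 and Tpm3, the uncalled genes with the highest levels, had log2 fold changes of 0.14, -0.04, 0.33 and 0.25. Tpm1 was 0.02 with library totals alone.

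Markers of other cell types were read beside these values. Of 8 cardiac markers 2 could be tested and 0 were called, and the list summed to 1.38, 1.87, 2.68 and 1.35 CPM, with Nppa, Nppb, Myl7, Mybpc3 and Nkx2-5 at 0 in 2 or more libraries. The 8 chondrocyte markers, 0 of them called, summed to 107676, 80641, 79172 and 101603 CPM. Within each genotype the library with more muscle RNA thus had the lower sum. Gene by gene, 3 of the 8 were higher in WT 2 than in WT 1, and 1 of the 8 in Trim28 KO 1 than in Trim28 KO 2. Of 7 satellite cell markers 5 were tested, 1 rose (Sdc4) and 1 fell (Vcam1). Sdc4 was the only gene of the 5 with a log2 fold change above 0, and the median was -0.15. The sums of the list, 332, 406, 598 and 621 CPM, were nevertheless higher in Trim28 KO. Of 6 fibroblast markers 4 fell and 0 rose, from sums of 45464 and 28070 CPM in WT to 11237 and 16175. Of 6 tendon markers 3 fell, with sums from 2510 to 3467 CPM. Of 6 nerve and Schwann cell markers 3 fell and 1 rose (S100b), with a median log2 fold change of -0.89. Their sums, 279, 285, 442 and 374 CPM, were nevertheless higher in Trim28 KO.

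Of 6 brown fat markers 4 were tested and all 4 rose, with sums of 18.7, 20.2, 65.1 and 51.5 CPM, among them Dio2, Ppargc1a and Pparg, while Ucp1, the defining gene, had 0, 1, 0 and 0 reads. Brown fat and muscle share several energy genes. Of 8 smooth muscle markers 6 were tested, and 1 rose (Smtn) and 2 fell. Their median log2 fold change was -0.45, whereas the list summed to 198, 208, 241 and 227 CPM. The part of these cell types in the differences of the muscle genes was not tested.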

How the data were processed

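The deposited values are raw counts. Read pairs on exons were assigned to gene names by featureCounts 1.6.4 with the M23 release of GENCODE (mm10), per the file headers, without strand, multi-mapping reads or reads over several genes. The submitters' processing notes also name edgeR. The aligner is not given in the sources used here. The 40 genes, the gene lists and the tests were chosen with earlier results of these data known.

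edgeR's filterByExpr at default settings left 16639 of 55228 genes. TMM factors were 0.939, 1.02, 1.04 and 1.00. The genotypes were tested with edgeR's quasi-likelihood fit, robust dispersions and no covariate (edgeR 4.0.16, limma 3.58.1, R 4.3.3). Genes were called at a Benjamini-Hochberg adjusted p under 0.05 over all genes tested. The SE is the size of the log2 fold change divided by the square root of F. Ratios between libraries of a genotype used a pseudocount of 0.5 reads. The floor of 3 counts covers counting error only.

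Libraries of a genotype differed beyond sampling noise (chi-square per degree of freedom 30.6 in WT and 24.6 in Trim28 KO), and each counted as 1 sample. The steps were tested on simulated data. Positions and shared exon bases came from GENCODE M21 on GRCm38, the assembly of mm10, and promoters from RefSeq on GRCm38.p6.

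All 40 genes could be named. Of the other muscle genes, up to 10 called genes with the smallest p and up to 4 uncalled genes with the highest mean CPM were named, and of each cell type list up to 3 genes with the highest mean CPM. Cardiac markers at 0 and Ucp1 were named outside this rule, after their values were seen. Alternatives were DESeq2 size factors, library totals alone, TMM without muscle genes, no filter, a filter of 5 CPM in 2 libraries, DESeq2 1.42.0, limma-voom, a replicate block and leaving out each library. A crossed replicate block and other sums of contractile reads were added after the data were seen.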

Additional observations from a re-analysis of the deposited data

How the results depend on the processing

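Both calls among the members were lost when 1 library was left out. That of Myog was lost without Trim28 KO 1 (log2 fold change 0.93) and that of Tnnt3 without Trim28 KO 2 (-0.61). Both values kept their sign, and such a fit also has less power. Leaving out each library in turn, where the lone library left in a genotype is assumed to vary like the others, gave 0 to 12 members higher and 0 to 1 lower, 0 to 2 regulators higher, 0 to 11 contractile and calcium-handling genes higher and 0 to 1 lower, and 8 to 27 of the other muscle genes higher and 0 to 4 lower. Over all genes it gave 702 to 1442 higher and 572 to 1406 lower, with the lowest counts without Trim28 KO 1. The median log2 fold change of the members ran from -0.24 without Trim28 KO 1 to 1.33 without WT 2. The log2 fold change ran over these 4 fits for Myod1 from 0.20 to 1.14, Myog from 0.93 to 2.04, Pax7 from -0.82 to -0.033, Myh1 from 0.064 to 2.63, Myh2 from -0.68 to 2.35, Myh3 from -0.72 to 1.43, and Myh7 from -1.17 to 2.13. It ran for Myh8 from 0.21 to 2.38, Myl1 from -0.36 to 1.08, Myl3 from -0.65 to 0.48, Myl4 from -0.24 to 0.72, Mylpf from -0.23 to 0.91, Ttn from -0.50 to 1.61, and Acta1 from -0.25 to 1.11. It ran for Actc1 from -0.24 to 1.001, Actn2 from -0.29 to 1.61, Actn3 from 0.29 to 2.26, Tnnt1 from -0.45 to 0.54, Tnnt2 from -0.24 to 1.16, Tnnt3 from -1.27 to -0.61, and Tnni1 from -0.50 to 0.83. It ran for Tnni2 from -0.085 to 0.97, Tnnc1 from -0.55 to 0.48, Tpm2 from -0.76 to 0.42, Neb from -0.17 to 2.20, Des from -0.032 to 1.07, Ryr1 from -0.22 to 1.16, and Cacna1s from -0.32 to 2.25. It ran for Casq1 from 0.80 to 2.63, Casq2 from -0.068 to 1.65, Atp2a1 from 0.084 to 2.47, Chrna1 from 0.85 to 1.45, Chrng from -0.33 to 1.47, Mymk from 0.53 to 1.53, and Ckm from -0.15 to 1.66. It ran for Hrc from 1.001 to 1.56, Meox1 from -1.02 to -0.76, Cox6a2 from 0.98 to 1.62, and Tpm1 from -0.12 to 0.069. With no filter on low counts, 7 members, 2 regulators (Myf6 and Myog), 5 contractile genes and 27 other muscle genes were higher, and with the stricter filter 9 other muscle genes were higher and 2 lower. limma-voom called 2 members higher, of which 1 was contractile, and DESeq2 called 2 other muscle genes lower. With library totals alone Tpm2 was at 0.0075 and Tpm1 at 0.019. The cause of these shifts was not tested.

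Deviations of same-numbered libraries had a correlation of -0.107 over 16639 genes. With 2 libraries per genotype this value cannot show whether the numbers mark pairs. With the replicate block 0 members and 0 regulators were higher, and Myog had an adjusted p of 0.065 by edgeR. A crossed replicate block, added after the data were seen, paired WT 2 with Trim28 KO 1 and WT 1 with Trim28 KO 2. These are the high and the low libraries of most members, so the block takes out their spread by design. It gave 11 members, 9 contractile genes and 30 other muscle genes higher, and over all genes 1593 higher and 1747 lower. The added member calls are therefore no evidence of a genotype difference. Relative to contractile reads with Tnnt3 in the sum, Myog differed by 1.29 and Pax7 by -0.57 on the log2 scale. Pax7, Pax3 and Myf5, at no more than 28 reads in any library, are limited by depth.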
